A study of Rattus norvegicus with 12 samples.

Results

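Liver RNA of rats fed NO-naproxen was compared with liver RNA of rats fed the control diet, on 8 of the 12 arrays of the series. The members were chosen by their titles: 4 arrays of Sprague Dawley rats given NO-naproxen at 550 mg/kg of diet for 7 days, and 4 of Sprague Dawley rats given control diet for the same time. All rats were housed singly with free food and water under a 12 hr light/dark cycle, and nothing in the labels separates the groups other than the diet. The labels call the 4 arrays of a diet biological replicates and state no age, sex or time of day for the livers. The remaining 4 arrays, of rats fed naproxen at 400 mg/kg of diet, entered the same fit and lent it their spread. Each array carried 19418 probe sets from 1 liver, and values are given as log2(intensity + 16), so that folds of dim probe sets are understated.

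Naproxen is a nonsteroidal anti-inflammatory drug: it blocks the cyclooxygenases Ptgs1 and Ptgs2, which make prostaglandins from arachidonic acid. NO-naproxen is naproxen joined through a linker to a nitrate group that releases nitric oxide, a gas that activates soluble guanylate cyclase and so raises cyclic GMP. The liver takes up such drugs, cleaves esters with carboxylesterases, oxidises with cytochromes P450 and conjugates the products for bile and urine. Many liver genes also follow the time of day and of feeding, through a clock in which Bmal1 and Clock drive the Per, Cry and Nr1d1 genes and these in turn repress it.

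Adjusted over all 19418 probe sets by the Benjamini-Hochberg method, no probe set (0.0%) had a limma p under 0.05, and the smallest adjusted p was 0.468. With an unadjusted p under 0.05, 2011 probe sets (10.4%) were counted. limma's array weights, which count noisier arrays less, gave 2 adjusted calls and 5937 probe sets with an unadjusted p under 0.05, and 4 adjusted calls were made without Control 2. What follows are therefore measured differences, given with their standard errors (SE). The clock repressor Nr1d1, the uridine phosphorylase Upp2, the G protein regulator Rgs16 and the arrestin-like Arrdc3 were 2.84-fold to 3.41-fold higher with NO-naproxen. The phosphatase Dusp1, the taurine-making enzyme Csad and the mitochondrial carrier Slc25a25 were 2.02-fold to 2.60-fold lower. These 7 genes all passed the series' own criterion, given below. In the cholesterol synthesis list, 4 of 17 genes were above 0, and Sqle was the lower of the 2 past the criterion.

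The series states its own criterion, p under 0.05 without adjustment and at least 1.5-fold, and limma's p was used for it here. By it 346 probe sets were higher with NO-naproxen (1.78%) and 392 lower (2.02%). To keep to genes with signal, a background was taken from the olfactory and vomeronasal receptors (970 probe sets), which serve in the nose and are not expected in liver. Their 95th percentile was 6.44, an intensity of 70.6, and 9833 genes with 1 symbol and 1 probe set each lay above it. Of these, 256 were higher (2.6%) and 111 lower (1.13%) by the criterion. In 50 of the higher genes (0.508%) and 11 of the lower ones (0.112%) the 4 arrays of one diet did not overlap the 4 of the other. Irrespective of the criterion, the diets did not overlap in 265 genes that were higher (2.7%) and 76 that were lower (0.773%).

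The arrays differed in how widely their values were spread, and this has to be read with every count above. From the 25th to the 75th percentile the log2 values spanned 2.44, 2.62, 2.07 and 2.30 on NO-naproxen arrays 1 to 4. On control arrays 1 to 4 this interquartile range was 2.09, 2.37, 1.996 and 1.94. The means were 2.36 ± 0.23 and 2.10 ± 0.19 (SD, n = 4). The difference of 0.26 gave p = 0.143 in a 2-sided exact permutation test over 70 assignments, where 0.0286 is the smallest possible p. The groups overlapped: NO-naproxen 3 was as narrow as the controls, and Control 2 as wide as the treated arrays. Over all probe sets, 6 of the 8 arrays correlated best with an array of the other diet. NO-naproxen 3 and Control 1 were the closest pair, with Pearson's r = 0.98 across probe sets, which are not independent replicates.

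**Figure D1:**
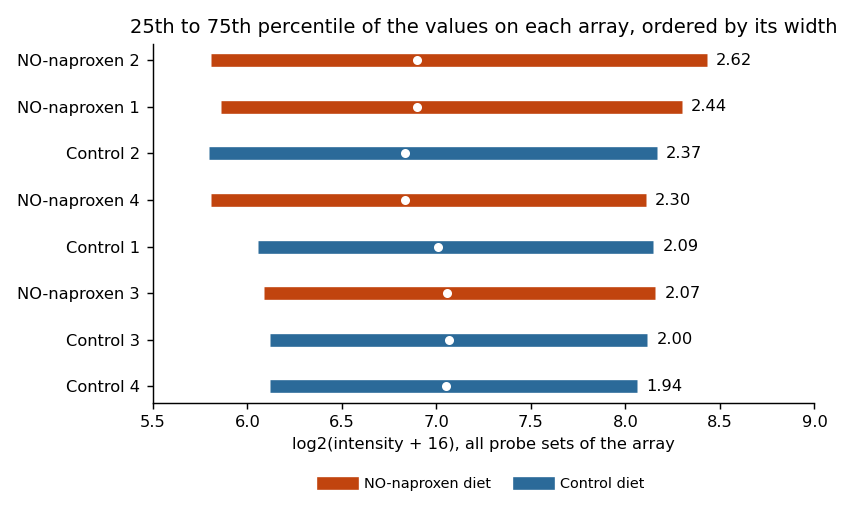
Bars show the range from the 25th to the 75th percentile of log2(intensity + 16) on each of the 8 arrays, white dots the medians, and numbers the width of the bar in log2 units. The 4 widest arrays are NO-naproxen 2, 1 and 4 and Control 2, and the 4 narrowest are Control 4, 3 and 1 and NO-naproxen 3.

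Fold changes differed by brightness. Where probe sets were sorted into 10 bins of equal size by their mean, the median log2 fold change was between -0.15 and -0.08 in the 5 dimmest bins. It was 0.18, 0.22 and 0.14 in the 3 brightest. Probe sets within the olfactory receptor range had a median of -0.13. With the interquartile range of each array as a covariate, the medians of all 10 bins lay between 0.01 and 0.05, and the olfactory range stood at 0.02. With quantile normalization they lay between -0.03 and 0.07, and without the 2 narrowest arrays, Control 3 and Control 4, between -0.04 and 0.10. The tilt from dim to bright was thus present in the deposited values and flatter in each of these 3 settings.

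**Figure D2:**
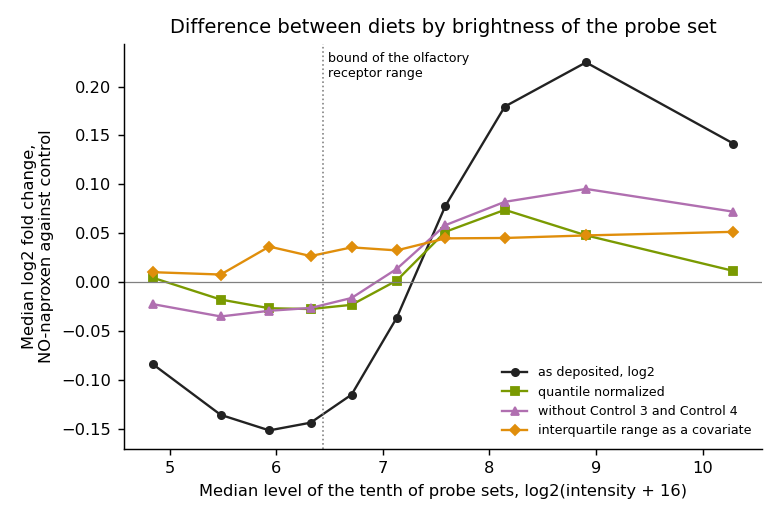
Each point is 1 of 10 equal bins of probe sets, placed at the median level of the bin, log2(intensity + 16), with the median log2 fold change of NO-naproxen against control on the vertical axis. In black, the deposited values run from -0.15 in the dim bins to 0.22 in the bright ones, while the fit with the spread covariate stays between 0.01 and 0.05; the dotted line is the bound of the olfactory receptor range at 6.44.

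The same covariate lowered the number of named genes above that bound past the criterion from 367 to 63, of which 41 were higher and 22 lower. Of the 367 genes, 366 kept their sign and 32 stayed past the criterion. The median gene kept 42.4% of its log2 fold change (45.5% among the higher genes, 32.2% among the lower). Of the 61 genes whose diets did not overlap, 14 stayed past the criterion and the median gene kept 67.8%. Other ways to treat the spread gave other counts: 94 genes with the olfactory mean as a covariate, 107 with wide and narrow arrays as a block, 73 without Control 3 and Control 4. The split between the directions moved as well, from 256 higher and 111 lower to 477 and 68 with median centring. It was 495 and 63 with scaling to one median, and 167 and 170 with quantile normalization. Centring and this scaling equalise the array medians and not their spread. Spread and diet go partly together, since 3 of the 4 wide arrays are of NO-naproxen, so a covariate can also take up a difference due to diet, and the 2 cannot be told apart in these 8 arrays.

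Single arrays also set the count of 367 named genes. Without NO-naproxen 2, the widest array, it was 98, without NO-naproxen 1 it was 179, and without Control 4 or Control 3 it was 134 or 198. It was 1361 without Control 2, the widest control, and 1347 without NO-naproxen 3, the narrowest treated array. Without NO-naproxen 4 it was 618, and without Control 1 it was 516.

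A set of 18 genes passed the criterion under all of 7 settings, called spread settings here. These were both covariates, the block, 3 normalizations and the 2 narrowest arrays left out. Of the 3 normalizations, median centring and scaling to one median give the arrays a common median and do not equalise their spread. With any single array left out, 14 of the 18 genes also passed. Higher in this set of 14 were Arrdc3, Upp2, Depp1, Rgs16, Nr1d1, Cox7b, Acp3, Hyal3, Ccdc149, Ksr2 and Amdhd1, and lower were Dusp1, Csad and Slc25a25. Hmgn2, Upf3a and Cryl1, which were higher, and Sqle, which was lower, passed under the spread settings but not without every single array. Ccdc149, Ksr2, Amdhd1, Hmgn2, Upf3a and Cryl1 were singled out after their values were seen. The control means of Cox7b, Upf3a and Hmgn2 (6.04, 6.07 and 6.37) lay below the olfactory receptor bound of 6.44.

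**Figure D3:**
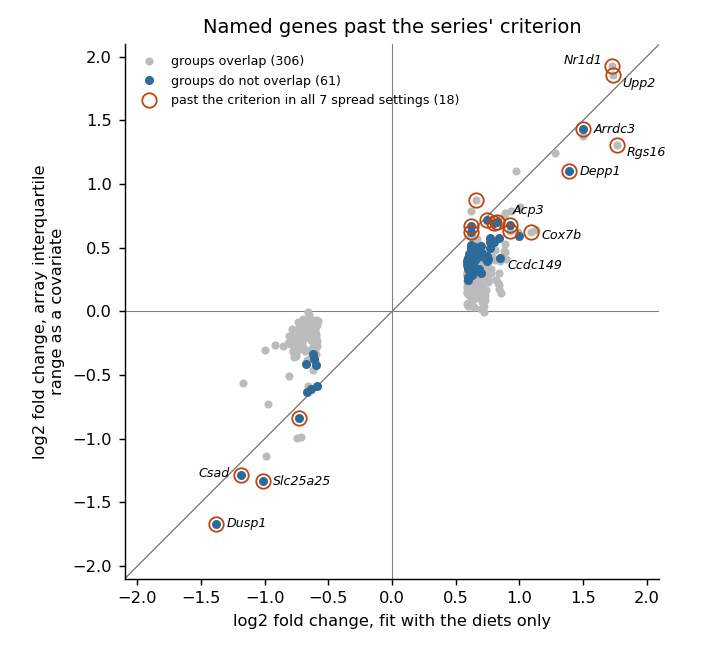
Each of 367 named genes past the series' criterion is placed by its log2 fold change in the fit with diets alone (horizontal) and with the interquartile range of each array as covariate (vertical). Points on the grey diagonal are equal in both fits; most points lie nearer to 0 than the diagonal, while Arrdc3, Nr1d1, Upp2, Dusp1, Csad and Slc25a25 lie near it or beyond it.

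Of the genes higher without overlap of the diets, Arrdc3 had the largest difference. Arrdc3 (Entrez Gene 309945), an arrestin domain protein that regulates receptor signalling and energy use, measured 11.49, 11.71, 11.62 and 12.12 on NO-naproxen arrays 1 to 4 and 9.67, 10.88, 10.19 and 10.18 on control arrays 1 to 4. The lowest treated array lay above the highest control, and the log2 fold change was 1.50 ± 0.26 (SE; 95% interval 0.95 to 2.05; limma adjusted p = 0.468, n = 4 each). Within the narrow arrays the difference was 1.61 and within the wide ones 0.89.

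Depp1 (Entrez Gene 500300), a target of forkhead factors that is induced in fasting, measured 8.75, 8.79, 8.26 and 9.07 against 8.22, 7.72, 6.84 and 6.52. The groups did not overlap, though NO-naproxen 3 and Control 1 lay only a little apart, and the log2 fold change was 1.39 ± 0.31 (1.102 with the spread covariate, 0.75 without Control 3 and Control 4 together). Ppargc1a, the coactivator of gluconeogenesis and mitochondrial genes, was higher on all 4 treated arrays (8.65 to 9.63) than on any control (7.16 to 8.57). Its log2 fold change of 0.99 ± 0.30 came to 0.59 with the covariate, no longer past the criterion. Lpin2, a phosphatidate phosphatase of triglyceride synthesis, stood at 9.83 to 10.63 against 9.19 to 9.54, with 0.77 ± 0.20, and 0.55 and not past the criterion with the covariate.

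The remaining leading higher genes had smaller differences. Hykk, hydroxylysine kinase, measured 9.25, 9.81, 9.18 and 9.17 against 8.68, 8.77, 8.44 and 8.16, a log2 fold change of 0.84 ± 0.19. Slc6a6, the taurine transporter, measured 11.42, 11.37, 11.31 and 11.55 against 11.02, 10.88, 10.65 and 10.61, 0.62 ± 0.16. In both genes the groups were separate, and in both the value with the covariate, 0.58 and 0.50, fell under the fold of 1.5. Acp3, a secreted acid phosphatase, differed by 0.93 ± 0.24 and Hyal3, of the hyaluronidase family, by 0.80 ± 0.21, and both passed with the covariate at 0.68 and 0.69. Clk4, a kinase of splicing factors, differed by 0.85 ± 0.23, Adcy10, the soluble adenylate cyclase, by 0.80 ± 0.22 and Pex3, which inserts peroxisomal membrane proteins, by 0.70 ± 0.18. With the covariate these 3 stood at 0.42, 0.54 and 0.52, none past the criterion. The other 5 of the 15 were the cell adhesion protein Cdh1, the corepressor subunit Sap130, Khnyn, the transcription cofactor Aatf and the cristae protein Apool, with log2 fold changes between 0.60 and 0.65. Of the 15, 4 kept the criterion with the covariate (Arrdc3, Depp1, Acp3 and Hyal3).

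Of the 111 lower genes past the criterion, Dusp1 (Entrez Gene 114856), the immediate early phosphatase that switches off MAP kinases, had the largest difference. It measured 9.79, 10.45, 9.32 and 9.50 on NO-naproxen arrays 1 to 4 and 11.15, 11.20, 10.85 and 11.37 on control arrays. The groups were separate, with a log2 fold change of -1.38 ± 0.28 (95% interval -1.98 to -0.78) that came to -1.67 with the spread covariate. Slc25a25 (Entrez Gene 246771), a carrier of ATP-Mg and phosphate across the inner mitochondrial membrane, measured 10.34, 10.08, 9.39 and 9.08 against 11.23, 10.66, 10.45 and 10.61. Its 4 treated values lay below all controls, by -1.01 ± 0.33, and by -1.33 with the covariate.

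A larger difference that missed the criterion belongs to an olfactory receptor, Or8h7b, named after its values were seen. It measured 6.85, 5.59, 10.38 and 5.51 on NO-naproxen arrays 1 to 4 and 10.33, 6.23, 10.80 and 10.65 on control arrays 1 to 4, a log2 fold change of -2.42 ± 1.17. All 4 narrow arrays lay above all 4 wide ones, in either diet.

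Csad (Entrez Gene 60356), cysteine sulfinic acid decarboxylase, makes hypotaurine, the precursor of taurine. It measured 9.20, 9.75, 8.85 and 8.99 against 10.66, 10.49, 10.34 and 10.04, again without overlap. The log2 fold change was -1.18 ± 0.27, and -1.28 with the covariate. Csad was the member of the urea cycle and amino acid list with the largest difference and the only one past the criterion, while Slc6a6, which carries taurine into the cell, was higher.

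The other lower genes lay near the bound of the olfactory receptor range or were of the cholesterol pathway. Pik3ip1, an inhibitor of PI3 kinase, measured 5.99 to 6.43 against 6.49 to 7.17, and C1qtnf2, an adipokine, 6.37 to 6.74 against 6.81 to 7.51. Tmem178b, Tcp11, the GABA receptor subunit Gabrr1 and the glycosyltransferase Pomgnt2 had group means of 6.34 to 6.93 with NO-naproxen and 7.005 to 7.60 in controls. The means of these 6 genes over all 12 arrays were 6.52 to 7.23, beside the bound of 6.44. The NO-naproxen means of Pik3ip1 (6.26) and Pomgnt2 (6.34) lay below that bound, and their control means (6.86 and 7.005) above it. Gabrr1 and Pomgnt2 kept the criterion with the spread covariate, at -0.61 and -0.63, but not with quantile normalization or without the 2 narrowest arrays. Of the 7 spread settings, which include centring and scaling to one median, Gabrr1 passed in 2, and Pomgnt2 and Tcp11 in 4 each. Pik3ip1, C1qtnf2 and Tmem178b passed in none, and stood at -0.42, -0.37 and -0.34 with the covariate.

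Leaving out 1 array showed how near the fold of 1.5 the leading genes lie. Of the 15 leading higher genes, 8 kept the criterion whichever array was left out (Arrdc3, Depp1, Hykk, Acp3, Hyal3, Lpin2, Clk4, Adcy10), and of the 11 lower ones 3 did (Dusp1, Csad, Slc25a25). The higher genes lost it at a log2 fold change of 0.52 to 0.58, without Control 4 or NO-naproxen 2 in 5 genes each. The lower ones lost it at 0.43 to 0.58 below the controls, without NO-naproxen 4 in 5 genes and without Control 4 in 4. Control 2 and NO-naproxen 3 cost none of the 26 genes the criterion.

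Promoter sequences were read for 12 of the 15 leading higher genes and 10 of the 11 lower ones, from RefSeq on rat build GRCr8, to see what letters the genes share. The palindrome TGACGTCA, the cAMP response element, was found on either strand in the 250 bases before the start of Dusp1 and of Slc25a25, and in none of the 12 higher genes. It occurs in 1.7% of 27457 promoters of that length. Both genes are known targets of cAMP signalling, and their promoters are shown for this match, picked after 7 motifs were searched. They are 2 of the 3 lower genes that held under each spread setting and each array left out. The third, Csad, is not among the matches, and a part of cAMP in these differences was not tested. Capitals mark the cAMP response element in both stretches, an E-box (CACGTG, in 5.79% of promoters) in Dusp1, and a CCAAT box (CCAAT, in 34.3%, here read on the other strand) in Slc25a25. The element begins 124 bases before the start of Dusp1 (chr10:17184703-17184822, plus strand) and 158 bases before that of Slc25a25 (chr3:36116652-36116771, minus strand).
Dusp1: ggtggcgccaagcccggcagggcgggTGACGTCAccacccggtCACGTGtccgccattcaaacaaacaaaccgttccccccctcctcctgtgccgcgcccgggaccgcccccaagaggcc
Slc25a25: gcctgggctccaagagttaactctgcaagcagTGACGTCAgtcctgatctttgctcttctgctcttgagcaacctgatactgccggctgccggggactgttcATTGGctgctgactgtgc

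The other motifs searched on both strands were a D-box (TTATGTAA, 0.816% of promoters), a sterol response element (TCACNCCAC, 0.976%), a forkhead site (GTAAACA, 3.25%) and an antioxidant response element (TGACNNNGC, 10.2%). The D-box was in none of the 22 promoters, the sterol element in Khnyn, the forkhead site in Gabrr1 and the antioxidant element in Slc6a6, Adcy10, Khnyn and Slc25a25. Besides Dusp1, the E-box was in the lower gene C1qtnf2 and in 2 of the 12 higher genes, Adcy10 and Aatf. The CCAAT box was in 3 of the 12 higher genes (Arrdc3, Clk4 and Adcy10) and in 4 of the 10 lower ones. A match describes letters and is no evidence of binding.

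The clock genes differed in opposite directions, and Control 1 stood apart from the other controls in the 4 past the criterion (Nr1d1, Per1, Per2 and Cry1). Nr1d1 (Entrez Gene 252917), which represses Bmal1, measured 8.09, 9.97, 10.53 and 8.99 on NO-naproxen arrays 1 to 4 and 8.49, 7.42, 7.25 and 7.51 on control arrays 1 to 4. Control 1 lay above NO-naproxen 1, and the other controls lay below every treated array. The log2 fold change was 1.73 ± 0.42 (95% interval 0.85 to 2.61), and 2.005 without Control 1.

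Per2 (Entrez Gene 63840), a repressor of the other arm, measured 7.12, 7.69, 7.25 and 6.70 against 7.15, 8.60, 8.55 and 8.41. Again Control 1 was at the level of the treated rats, and the other 3 controls were above all of them. The log2 fold change was -0.99 ± 0.31, -1.33 without Control 1, and -0.69 and not past the criterion without Control 3 and Control 4 together. Cry1, the partner of the Per proteins, stood at 8.003 to 8.80 against 8.54 to 9.63, a log2 fold change of -0.72 ± 0.25 (-0.92 without Control 1), and fell under the criterion at -0.55 without Control 2 and -0.57 without NO-naproxen 3. Without Control 3 and Control 4 together it was -0.66, not past the criterion.

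Per1, named after its values were seen, went the other way from Per2. It measured 8.24, 9.22, 8.87 and 7.85 against 9.08 in Control 1 and 7.05, 7.29 and 6.73 in the others. Its log2 fold change was 1.01 ± 0.41, and 1.52 without Control 1. It did not pass the criterion without NO-naproxen 2 (0.78), NO-naproxen 3 (0.90), Control 2 (0.84), Control 3 (0.93) or Control 4 (0.74), nor with the covariate (0.82) or without Control 3 and Control 4 together (0.48). Bmal1, the activator that Nr1d1 represses, was also named after its values were seen, with a log2 fold change of 0.02 ± 0.17 that was below 0 with the spread covariate (-0.18) and with quantile normalization (-0.13). Of the 14 clock genes above the bound 2 were higher and 2 lower by the criterion, against 2.6% and 1.13% of all named genes, and their median was -0.02 (-0.10 with the covariate) beside 0.12 (0.05) for all.

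The promoter of Per2 is shown for its D-box, where the clock output factors Dbp, Tef and Nfil3 bind, beginning 192 bases before the start, and for CCAAT boxes 163 and 100 bases before it (chr9:99497084-99497203, minus strand, GRCr8), all in capitals. Per2 was picked for this after its values were seen.
Per2: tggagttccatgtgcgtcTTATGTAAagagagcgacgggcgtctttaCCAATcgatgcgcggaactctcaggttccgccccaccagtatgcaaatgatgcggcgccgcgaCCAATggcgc

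Among genes that the clock and feeding drive, Upp2 and Rgs16 had, with Nr1d1, the largest differences of the 256 higher genes past the criterion. Upp2 (Entrez Gene 295620), which breaks down uridine, measured 9.14, 10.58, 10.75 and 9.70 against 9.38, 7.93, 7.90 and 8.01. Rgs16 (Entrez Gene 360857), which turns off Gi and Gq signals in hepatocytes, measured 10.96, 11.47, 10.47 and 11.36 against 10.74, 9.49, 8.41 and 8.55. In both, Control 1 lay within the treated range and the other 3 controls below it.

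The log2 fold changes were 1.74 ± 0.39 for Upp2 and 1.77 ± 0.42 for Rgs16, and 2.10 and 2.25 without Control 1. Lpin1, a phosphatidate phosphatase that follows the clock and fasting, had 11.73 in Control 1 and 9.64 to 10.27 in the other controls, against 10.59 to 12.15. Its log2 fold change of 0.94 ± 0.43 was 1.40 without Control 1, and missed the criterion without NO-naproxen 2 (0.64), NO-naproxen 3 (0.88), Control 2 (0.91), Control 3 (0.70) or Control 4 (0.73). With the covariate it was 0.79 and without Control 3 and Control 4 together 0.27, neither past the criterion. These 3 were the genes past the criterion among 11 clock output factors, where 2.6% of all named genes were higher by it. The median of the 11 was -0.06. Dbp, the classical output factor and likewise named afterwards, had a log2 fold change of -0.26 ± 0.22, and 0.25 within the narrow arrays against -0.41 within the wide ones. Since the labels give no time of sampling, a difference in time between rats and a difference due to diet cannot be told apart.

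**Figure D4:**
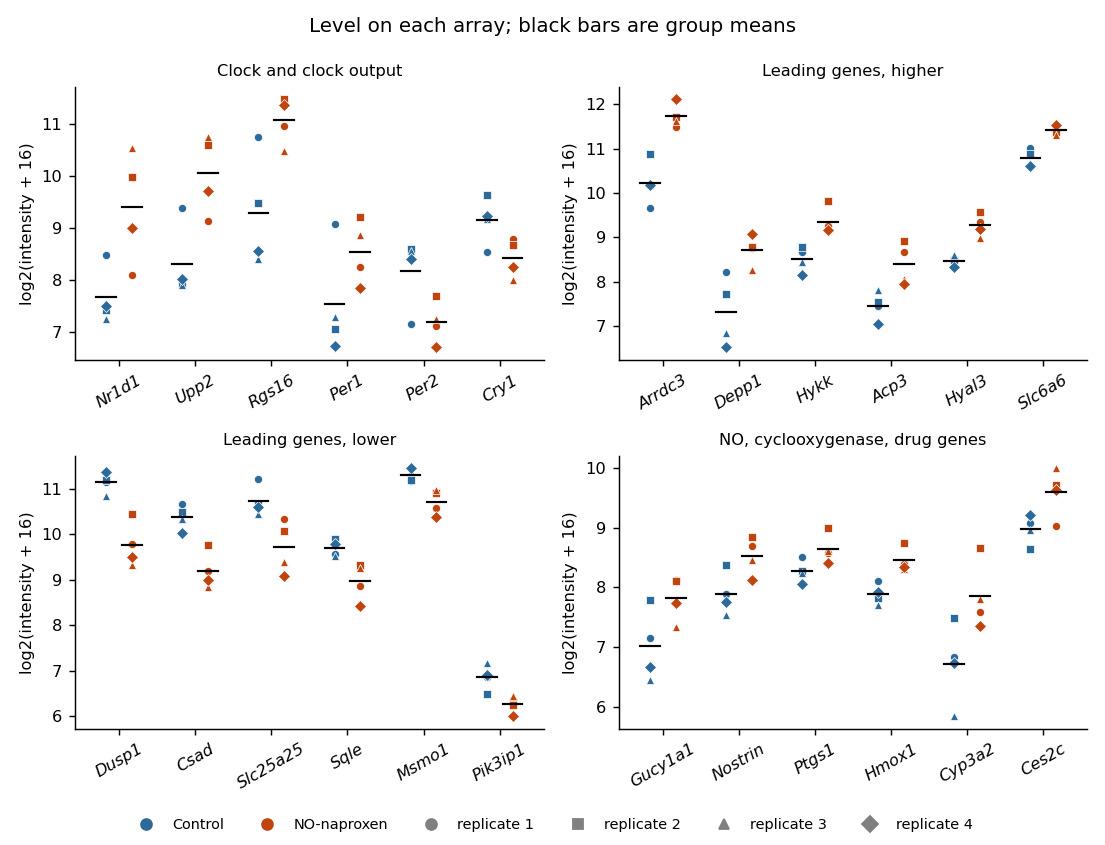
Points are single arrays, log2(intensity + 16), with control in blue and NO-naproxen in red, symbols for the replicate numbers and black bars for group means of 4. In the clock panel the blue circle, Control 1, lies apart from the other controls in Nr1d1, Upp2, Rgs16, Per1, Per2 and Cry1. In the panels of leading genes no red point crosses a blue one of the same gene, because these genes were chosen for not overlapping.

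Immediate early genes, which answer within minutes to hormones and stress, had 9 of 22 members above 0 and a median of -0.04. By the criterion 2 were higher and 2 lower, against 2.6% and 1.13% of all named genes above the bound. Besides Dusp1, the kinase Sgk1, a target of glucocorticoids and insulin, measured 9.99, 9.79, 9.32 and 9.72 against 9.71 in Control 1 and 10.40 to 10.90 in the other controls, a log2 fold change of -0.74 ± 0.26 (-0.996 with the covariate, -0.99 without Control 1, and -0.60 and not past the criterion without Control 3 and Control 4 together). The transcription factor Klf6 was higher by 0.74 ± 0.22, at 7.94 to 8.79 against 7.27 to 8.07, but by 0.38 with the covariate, under the criterion. Egr1, named after its values were seen, ranged from 7.34 to 10.24 with NO-naproxen and from 7.51 to 7.74 in controls. NO-naproxen 1 lay below every control, and the log2 fold change of 1.28 ± 0.47 was 0.85 without NO-naproxen 2 and 1.24 without Control 3 and Control 4 together, neither past the criterion.

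Cholesterol synthesis and uptake was the list with the lowest median among those with 10 or more genes. Of 17 genes above the bound, 4 had a fold change above 0, where 63.8% of all named genes did. The median was -0.19, -0.30 with the spread covariate and -0.29 with quantile normalization, beside 0.12, 0.05 and 0.04 for all named genes. Squalene epoxidase, Sqle (Entrez Gene 29230), the first oxygenation of the sterol branch, measured 8.85, 9.33, 9.25 and 8.43 with NO-naproxen and 9.57, 9.90, 9.51 and 9.80 in controls. No treated value reached the lowest control, though NO-naproxen 2 and Control 3 were close, and the log2 fold change was -0.73 ± 0.21 (-0.55 and not past the criterion without NO-naproxen 4).

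Msmo1 (Entrez Gene 140910), the methylsterol oxidase further down the pathway, measured 10.57, 10.90, 10.99 and 10.37 against 11.17, 11.19, 11.37 and 11.46. The groups were separate at -0.59 ± 0.18, just past 1.5-fold. The value lay just under the fold with the covariate (-0.58) and without NO-naproxen 1 (-0.55), NO-naproxen 4 (-0.48), Control 3 (-0.57) or Control 4 (-0.54). Mvd, mevalonate decarboxylase, had 7.25 to 7.63 against 7.46 in Control 1 and 7.93 to 8.004 in the other controls, a log2 fold change of -0.43 ± 0.19 that is under the criterion. Only Sqle and Msmo1 of the list passed it, in the main fit, where 1.13% of all named genes were lower by it. On the naproxen arrays, at another dose and with the same controls, Sqle stood at 9.42 ± 0.29 and Msmo1 at 10.89 ± 0.23 (SD, n = 4).

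The promoter of Msmo1 held 3 CCAAT boxes, in capitals, which begin 173, 109 and 68 bases before the start (chr16:29746923-29747062, plus strand, GRCr8). This box is where NF-Y binds, a partner of the sterol factor Srebf2. No sterol element of the form searched was in these 250 bases.
Msmo1: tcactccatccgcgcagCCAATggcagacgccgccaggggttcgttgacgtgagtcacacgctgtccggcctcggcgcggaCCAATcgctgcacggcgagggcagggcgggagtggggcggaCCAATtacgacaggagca

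Bile acid genes showed no member past the criterion, with 10 of 20 above 0 and a median of -0.01. Cyp7a1, the rate-limiting enzyme, measured 9.98, 11.10, 10.98 and 10.18 with NO-naproxen and 10.83 to 11.11 in controls. NO-naproxen 2 and 3 lay among the controls and NO-naproxen 1 and 4 below them, and the log2 fold change was -0.40 ± 0.25 (95% interval -0.92 to 0.13). With naproxen at its own dose the level was 9.90 ± 0.35 (SD, n = 4). The sterol exporter Abcg5 had 0.55 ± 0.41 and the FGF co-receptor Klb 0.49 ± 0.30, the latter below 0 with the spread covariate (-0.10) and with the olfactory mean as a covariate (-0.02).

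Genes of fat and glucose metabolism had medians close to that of all genes. In triglyceride synthesis 2 of 18 were higher by the criterion (Lpin1 and Lpin2), against 2.6% of all named genes above the bound. The median was 0.04, and Dgat1, the last step, differed by 0.26 ± 0.18. In fatty acid oxidation 16 of 21 were above 0, with a median of 0.10, and Ppara, the receptor that drives this list, was the member past the criterion. Ppara measured 9.49, 10.16, 9.14 and 9.36 against 9.48, 8.90, 8.66 and 8.42, so Control 1 lay in the treated range; its log2 fold change of 0.67 ± 0.25 was 0.39 with the covariate and missed the criterion without NO-naproxen 2 (0.46) or Control 4 (0.52). Its targets Decr1, of unsaturated fat oxidation, and Acot2, a mitochondrial thioesterase, differed by 0.52 ± 0.17 and 0.40 ± 0.17. Of 19 genes of glucose handling, Ppargc1a alone passed. The insulin receptor Insr differed by 0.55 ± 0.20 and the glycolytic enzyme Pklr by -0.33 ± 0.17. The median of that list was 0.14, and -0.01 with the covariate or with quantile normalization.

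Among genes of drug handling, of 26 receptors and cytochromes P450 above the bound, 4 were higher by the criterion and 20 were above 0. Of all named genes above the bound, 2.6% were higher by the criterion and 63.8% were above 0. The median of the list was 0.20 (0.12 with the covariate, 0.07 with quantile normalization). Cyp3a2 measured 7.59, 8.66, 7.81 and 7.35 with NO-naproxen and 6.83, 7.49, 5.84 and 6.73 in controls. Only Control 2 reached into the treated range, and the log2 fold change was 1.13 ± 0.32, 0.64 with the covariate, where it stayed past the criterion, and 0.70 without Control 3 and Control 4 together, where it did not. Its relative Cyp3a23-3a1 was higher on all treated arrays, 12.40 to 13.01 against 12.00 to 12.39, by 0.47 ± 0.17, under the fold. Cyp3a18, named after its values were seen, had 0.89 ± 0.36, with 1.77 in narrow and 0.07 in wide arrays. It missed the criterion with the covariate (0.77), with quantile normalization (0.71) and without each of 4 single arrays. These genes are close copies, and probe sets may share signal between them.

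Receptors that drive such enzymes were part of the same list. The xenobiotic receptor Ahr measured 10.49, 11.03, 10.40 and 10.16 against 10.47 in Control 1 and 9.51 to 9.82 in the others, a log2 fold change of 0.63 ± 0.22 that missed the criterion without NO-naproxen 2 (0.46) or Control 4 (0.51). Nr1i3, the receptor CAR, named after its values were seen, had 9.05 to 10.64 against 8.83 to 9.45 and 0.67 ± 0.27, and missed the criterion without NO-naproxen 2 (0.41), Control 1 (0.65) or Control 3 (0.55). Neither passed with the spread covariate, at 0.50 and 0.46. Cyp1a1, the main target of Ahr, lay within the olfactory receptor range, at 5.83 to 6.40 against 5.69 to 6.50, a log2 fold change of -0.01 ± 0.24 whose sign turned under the spread settings. Cyp2c11 differed by -0.21 ± 0.32, and by 0.04 with the covariate.

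Of 24 conjugating enzymes and esterases, Ces2c alone was past the criterion. It belongs to the carboxylesterases, which cleave ester drugs, and measured 9.03, 9.71, 10.00 and 9.63 with NO-naproxen against 9.07, 8.64, 8.95 and 9.22. NO-naproxen 1 lay among the controls and the other 3 above them. The log2 fold change was 0.62 ± 0.25, 0.79 with the covariate and 0.42 with quantile normalization, and missed the criterion without NO-naproxen 2 (0.58), NO-naproxen 3 (0.49) or Control 2 (0.51). Copies of this family are alike, so the value may not be of Ces2c alone. The acetyltransferase Nat8 differed by -0.38 ± 0.17, the sulfotransferase Sult2a2 by 0.57 ± 0.27 (0.10 with the covariate) and Aldh2, which can release nitric oxide from organic nitrates, by -0.18 ± 0.21 (0.17 with the covariate). The list's median was 0.09, and -0.03 with quantile normalization.

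Nitric oxide signalling is where the added group of the drug would act. Of 21 genes above the bound 2 were higher by the criterion and 11 above 0, against 2.6% and 63.8% of all named genes above the bound. The median of the list was 0.06 (0.06 with the covariate, -0.01 with quantile normalization). Gucy1a1, the alpha subunit of soluble guanylate cyclase, the receptor for nitric oxide, measured 8.12, 8.11, 7.33 and 7.74 with NO-naproxen and 7.15, 7.78, 6.44 and 6.66 in controls. Control 2, the wide control, lay within the treated range, and the log2 fold change of 0.82 ± 0.28 became 0.24 with the covariate. Its partner Gucy1b1 differed by 0.46 ± 0.23, and by 0.07 with the covariate.

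Nostrin, which carries the endothelial nitric oxide synthase away from the membrane, had 8.12 to 8.85 against 7.54 to 8.37 and 0.64 ± 0.23 (0.41 with the covariate, 0.53 without NO-naproxen 2, 0.52 without Control 3, all under the criterion). The inducible synthase Nos2 measured 6.29, 6.36, 7.10 and 6.30 against 6.89, 5.48, 7.34 and 7.11, -0.19 ± 0.37, and 0.44 with the covariate. The endothelial Nos3 differed by -0.11 ± 0.15. Both differences were smaller than their standard error. Hmox1, heme oxygenase, which nitric oxide and oxidants can induce, was higher on each treated array, 8.31 to 8.75 against 7.69 to 8.10, by 0.56 ± 0.19, just under the fold.

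In the pathway that naproxen blocks, no gene of 23 above the bound passed the criterion; 17 were above 0 and the median was 0.17 (0.07 with the covariate). Ptgs1 measured 8.58, 8.996, 8.61 and 8.40 against 8.51, 8.27, 8.24 and 8.06, a log2 fold change of 0.38 ± 0.18. Ptgs2 measured 7.04, 7.02, 7.50 and 7.15 against 7.58, 6.99, 7.98 and 7.80, -0.41 ± 0.23, and -0.05 with the covariate. Both genes overlapped between diets, and in Ptgs2 the values of the wide arrays were the lowest in either diet. Hpgds, which makes prostaglandin D2, differed by 0.48 ± 0.24 (0.05 with the covariate). Of the 24 antioxidant genes under NRF2 none passed either. Nqo1 differed by 0.34 ± 0.18, its values lying at 7.90 to 8.48 against 7.61 to 8.11, and Keap1, the sensor of the pathway, by 0.31 ± 0.16.

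Most genes of the mitochondrion were above 0, by little, where 63.8% of all named genes were. The lists were not matched for brightness. Of 47 genes of oxidative phosphorylation, 42 were above 0 with a median of 0.15. The median was 0.18 with the covariate and 0.00 with quantile normalization, where 25 of the 47 and 5442 of all 9833 named genes were above 0. Cox7b, a small subunit of cytochrome oxidase, measured 7.55, 7.48, 6.46 and 7.03 against 6.26, 6.61, 5.40 and 5.89. Its log2 fold change was 1.09 ± 0.27 (0.62 with the covariate, still past the criterion). The mean of Cox7b over all arrays, 6.53, lay beside the bound of 6.44. Its group means were 7.13 with NO-naproxen, 6.41 with naproxen and 6.04 in controls, so only the NO-naproxen mean lay above the bound. NO-naproxen 3 and Control 3, both among the 4 narrow arrays, had the lowest value of their diets, while Control 1, also narrow, had the second highest control value. Ndufv2, of complex I, stood at 9.17 to 10.04 against 8.56 to 8.997, by 0.71 ± 0.20 (0.54 without NO-naproxen 2 and 0.46 with the covariate, neither past the criterion), and Atp5me, of ATP synthase, differed by 0.39 ± 0.18.

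Of 46 mitochondrial ribosomal proteins, 41 were above 0 with a median of 0.24 (0.16 and 0.13 with the covariate and with quantile normalization), and none passed the criterion. Mrpl1, Mrps15 and Mrpl48 differed by 0.47 ± 0.17, 0.57 ± 0.22 and 0.46 ± 0.18. In amino acid catabolism, where 20 of 33 were above 0 with a median of 0.02, the tryptophan oxygenase Tdo2 measured 11.80 to 11.96 against 11.03 to 11.52 and the urea cycle enzyme Otc 10.50 to 11.08 against 10.18 to 10.48. Neither overlapped between diets, and at 0.50 ± 0.15 and 0.48 ± 0.16 neither reached the fold.

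Protein quality genes were likewise mostly above 0, beside 63.8% of all named genes. Of 24 proteasome subunits 23 were above 0, with a median of 0.25 (0.31 with the covariate, 0.08 with quantile normalization). Psmd11 was the member past the criterion, at 8.75 to 9.66 against 8.34 to 8.87 and 0.67 ± 0.20 (0.52 with the covariate and 0.51 without NO-naproxen 2, both under it). The base subunits Psmc1 and Psmc2 differed by 0.43 ± 0.17 and 0.48 ± 0.19. Of 14 heat shock chaperones 13 were above 0, with a median of 0.26 that came to 0.08 with the covariate, where 8 were. The chaperones Hspa9 and Dnaja1 differed by 0.39 ± 0.16 and 0.38 ± 0.16, and the cochaperone Bag3 by 0.47 ± 0.21. In the unfolded protein response 18 of 25 were above 0 with a median of 0.19 and none past the criterion; Dnajb9, Selenos and Canx differed by 0.41 ± 0.18, 0.37 ± 0.18 and 0.36 ± 0.18.

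Lists of defence genes are read against the 63.8% of all named genes above 0 and their median of 0.12. Medians differed by brightness, at 0.18, 0.22 and 0.14 in bins 8, 9 and 10 of the 10 described above. Neither these lists nor the others were matched for brightness. In the acute phase list 18 of 26 were above 0 with a median of 0.04. By the criterion 2 were higher, against 2.6% of all named genes. Il1rn, the antagonist of interleukin 1, measured 8.82, 9.14, 8.15 and 8.52 against 8.68 in Control 1 and 7.11 to 7.65 in the others. Its log2 fold change of 0.89 ± 0.29 was 0.53 with the covariate. Il6r, the receptor of interleukin 6, had 10.98 in Control 1, 9.37 to 9.76 in the other controls and 10.23 to 11.16 with NO-naproxen. Its difference was 0.67 ± 0.29, under the criterion with the covariate (0.50), without Control 3 and Control 4 together (0.23), or without Control 2 (0.61), Control 3 (0.56), Control 4 (0.49), NO-naproxen 2 (0.49) or NO-naproxen 3 (0.66). Stat3, which carries that signal, differed by 0.35 ± 0.18. The iron hormone Hamp, an acute phase gene, had 0.01 ± 0.23, and A2m, the acute phase protein of the rat, lay within the olfactory receptor range at 4.25 to 5.16 against 4.33 to 5.71.

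Of 33 interferon and antigen presentation genes 27 were above 0, with a median of 0.20 (0.11 with the covariate). Ifi44 passed the criterion at 0.85 ± 0.33, with 9.25, 9.23, 8.07 and 8.57 against 8.23, 8.66, 7.45 and 7.36. In either diet the wide arrays had the higher values, and the difference was 0.15 with the covariate and missed the criterion without NO-naproxen 1, NO-naproxen 2, Control 3 or Control 4 (0.67 to 0.70). Ifi35 and Rsad2 differed by 0.43 ± 0.16 and 0.40 ± 0.20. In complement and coagulation 21 of 35 were above 0 with a median of 0.06 and none past the criterion; F8, C1qc and Klkb1 differed by 0.50 ± 0.24, 0.35 ± 0.22 and 0.30 ± 0.20.

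The growth hormone list held 14 of 19 genes above 0, with a median of 0.22 and 0.04 with the covariate. Its member past the criterion was Cyp3a2, and the receptor Ghr and its kinase Jak2 differed by 0.41 ± 0.20 and 0.52 ± 0.23. In the cell cycle list 17 of 27 were above 0 with a median of 0.07. Tyms, thymidylate synthase, passed at 0.59 ± 0.22, on the fold itself, and not without NO-naproxen 1, NO-naproxen 2, Control 1 or Control 4 (0.42 to 0.56). Tpx2 differed by 0.56 ± 0.22 and the replication factor Cdc6 by -0.38 ± 0.16. Of 21 genes of p53 and apoptosis 17 were above 0, with a median of 0.14 (0.01 with the covariate); Bcl2l1, Apaf1 and Casp8 differed by 0.49 ± 0.18, 0.53 ± 0.22 and 0.38 ± 0.19.

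Lists of the liver's own functions stood near 0. Of 21 iron and heme genes 17 were above 0, with a median of 0.09 (-0.05 with quantile normalization); Uros and the iron exporter Slc40a1 differed by 0.39 ± 0.20 and 0.27 ± 0.17. Of 14 apolipoprotein genes 12 were above 0, with a median of 0.05. The sorting receptor Sort1 passed at 0.63 ± 0.19 (0.34 with the covariate, 0.50 without NO-naproxen 1, 0.57 without Control 3, none past the criterion), while Apob and Apom differed by 0.19 ± 0.16 and 0.26 ± 0.22. Of 18 hepatocyte transcription factors 13 were above 0, with a median of 0.06 that was -0.03 with the covariate and -0.10 with quantile normalization. Rxra, Nr5a2 and Nr1h3 differed by 0.39 ± 0.19, 0.32 ± 0.17 and 0.32 ± 0.22.

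**Figure D5:**
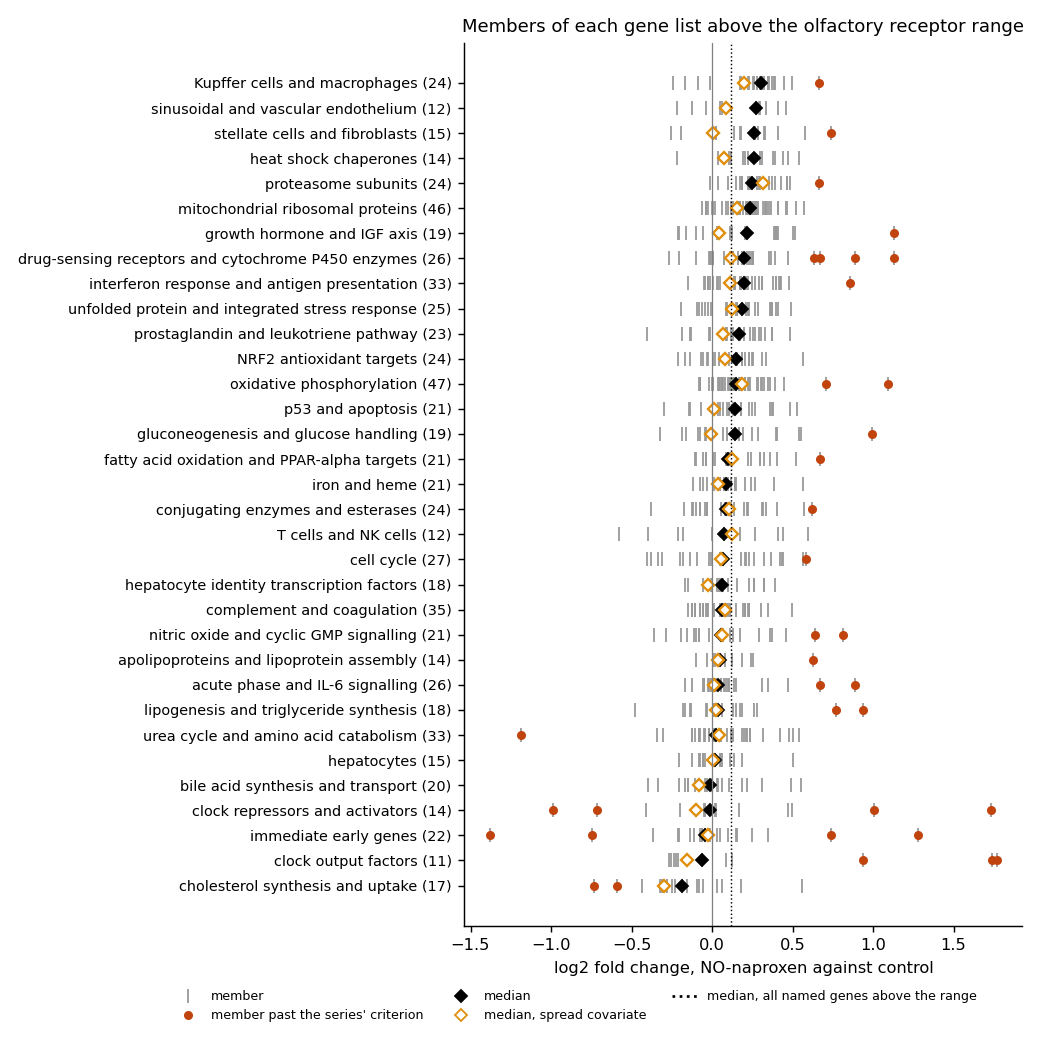
Each tick is a member of a gene list above the olfactory receptor range, placed by its log2 fold change, and red dots are members past the series' criterion; black and open diamonds are the list's median in the fit with diets alone and with the spread covariate. The dotted line is the median of all 9833 named genes, 0.12, and of the lists drawn, which have 10 or more members, cholesterol synthesis lies farthest to its left, at -0.19, with clock genes spread from -0.99 to 1.73.

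Markers were used to check the tissue and its cell makeup. Albumin, Alb, measured 13.53 to 13.85 with NO-naproxen and 13.55 to 13.68 in controls, and 15 hepatocyte markers had a median log2 fold change of 0.02, 8 of them above 0. Of 24 markers of Kupffer cells and macrophages 20 were above 0, with a median of 0.30 (0.20 with the covariate, 0.15 with quantile normalization). Their mean level per array was 8.80 to 9.37 with NO-naproxen and 8.61 to 9.05 in controls, so the groups overlapped. Ptprc, common to leukocytes, passed the criterion at 0.67 ± 0.27 (0.23 with the covariate, 0.57 without NO-naproxen 1, 0.43 without NO-naproxen 2, 0.58 without Control 3, 0.53 without Control 4, none past it), and Vsig4 and Csf1r differed by 0.44 ± 0.19 and 0.50 ± 0.21.

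Of 12 endothelial markers 9 were above 0, with a median of 0.27 (0.09 with the covariate), and Flt1, Oit3 and Flt4 differed by 0.46 ± 0.20, 0.29 ± 0.15 and 0.30 ± 0.17. Of 15 stellate cell and fibroblast markers 13 were above 0, with a median of 0.26 that was 0.01 with the covariate. Hgf, the hepatocyte growth factor, passed the criterion at 0.74 ± 0.26 (0.27 with the covariate, 0.58 without NO-naproxen 2, 0.57 without Control 3, none past it), and Rgs5 and Lrat differed by 0.58 ± 0.20 and 0.41 ± 0.22. Among the rarer cells, 12 markers of T and NK cells had a median of 0.07 and 7 of the pancreas one of -0.26 (-0.08 with the covariate), with no member past the criterion. The same holds for 2 markers of B cells, 4 of neutrophils, 3 of red cells, 3 of adipocytes, 6 of muscle and 4 of bile ducts, with medians between -0.44 and 0.14. In a whole liver sample, more cells of a type and more RNA per cell cannot be told apart, and the part of cell makeup in the gene differences above was not tested.

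Levels on the 4 naproxen arrays are set beside these for some leading genes and for Nr1d1, Cox7b and Amdhd1, with the dose different and the controls shared. Arrdc3 stood at 11.53 ± 0.45, Depp1 at 8.54 ± 0.34 and Nr1d1 at 9.39 ± 0.40 (SD, n = 4). Dusp1 stood at 9.76 ± 0.59, Csad at 9.31 ± 0.58 and Slc25a25 at 9.56 ± 0.72. The means with NO-naproxen were 11.73 ± 0.27, 8.72 ± 0.33, 9.40 ± 1.08, 9.76 ± 0.50, 9.20 ± 0.40 and 9.72 ± 0.59 in that order. Cox7b, which was 7.13 ± 0.50 with NO-naproxen and 6.04 ± 0.52 in controls, stood at 6.41 ± 0.28 with naproxen, and Amdhd1, of histidine breakdown, at 9.73 ± 0.48 beside 10.35 ± 0.48 and 9.53 ± 0.30.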

How the data were processed

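Liver RNA of 12 rats was hybridised to Affymetrix whole-transcript arrays, 4 per diet. The deposited table holds 1 linear intensity per probe set and array. Per the submitters' processing notes, Affymetrix Expression Console 1.1.1 and the build rn4 were used. The sources used here do not say how the intensities were summarised or normalized. On inspection, array medians and spreads differ, so the deposited intensities were not forced to one distribution, and array medians were 97.9 to 118 on the 8 arrays compared.

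Values were taken as log2(intensity + 16) with no further normalization and fitted with limma 3.58.1 in R 4.3.3 (lmFit and eBayes) over all 12 arrays and 3 diets. p-values were adjusted by Benjamini-Hochberg over 19418 probe sets. Folds are on this log2 scale, and intervals are 95% limma intervals. Tables and figures were made with Python 3.11.15, pandas 2.3.3 and matplotlib 3.10.9. Probe sets with 1 symbol numbered 13327, those with several 620 and those with none 5471, and only the first were named. Of them 13232 matched RefSeq by Entrez number, which changed no symbol. For the 102 genes with several probe sets the brightest was used, and 74.4% of named genes lay above the olfactory receptor bound.

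Genes were named by rule: the 15 with the smallest p in each direction past the criterion without overlap of the diets, up to 3 members of each list, and 12 genes tied to the drugs or the liver. Genes named after their values were seen are marked. The members and lists were chosen with earlier results of these data known. The 40 lists get counts and medians, and no test.

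Precision is limited by the number of arrays, with a median SE of a log2 fold change of 0.21 and a 95% interval of 0.44 to either side. On simulated data for this comparison (19418 probe sets), the fit called 62.7% of changes of 1 log2 unit, 89.6% of 1.5 and 97.0% of 2, with 7 unchanged probe sets called. The simulated noise was drawn for each probe set alone and held no spread shared across an array. These percentages therefore check the fit and do not give the share of changes that the measured arrays could yield. Alternatives covered the constant, normalization, array spread, array weights, a filter, thresholds, the replicate block and each array left out.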

Additional observations from a re-analysis of the deposited data

Results flagged for a closer look

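In 13 of 264 groups of 4 arrays among the named genes, 1 array stood far from the other 3 by Dixon's criterion for the gap over the range. Chance marks about 1 group in 20, and the reason for each value was not tested. Levels are log2(intensity + 16).

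Control 1 stood apart in 4 genes. In Upp2 it measured 9.3798 where the other controls lay at 7.9012 to 8.0131, and in Per2 7.1539 beside 8.408 to 8.5975. In the sterol enzyme Mvd it measured 7.463 beside 7.9271 to 8.004, and in the proteasome subunit Psmc2 9.2513 beside 8.9136 to 8.9519. In all 4 its value lay within the range of the NO-naproxen arrays.

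Control 2, the wide control, was low in Tmem178b (6.8179 beside 7.2359 to 7.3102) and in Tdo2 (11.0308 beside 11.4453 to 11.5216), and high in Ksr2 (7.2765 beside 6.6605 to 6.7098). Control 4 was low in Apaf1, at 6.0124 beside 6.5735 to 6.6709.

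NO-naproxen 2, the widest array, was high in Hykk (9.8138 beside 9.1708 to 9.2532) and Decr1 (9.5532 beside 9.0329 to 9.1193). NO-naproxen 3, the narrowest treated array, was high in Nos2 (7.1048 beside 6.2906 to 6.3553) and Aldh2 (12.3577 beside 11.6269 to 11.71). NO-naproxen 1 was low in Cdc6, at 7.0734 beside 7.3684 to 7.4069.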

How the results depend on the processing

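Adjusted calls numbered 0 in the fit as reported, 2 with array weights and 0 to 4 with 1 array left out. Probe sets past the criterion numbered 738, against 2527 with array weights, 154 with the constant 64, 236 with the interquartile range as covariate, 270 with the olfactory receptor mean as covariate, 275 with spread class as a block (chosen after seeing the data), 215 without the 2 narrowest arrays, 55 at a fold of at least 2, and 284 (without NO-naproxen 2) to 2570 (without Control 2) with 1 array left out. For the 367 named genes above the olfactory receptor range the same settings gave, in that order, 1361, 107, 63, 94, 107, 73 and 14, with 98 (without NO-naproxen 2) to 1361 (without Control 2) with 1 array left out. Scaling to one median gave 558, and the 99th percentile as the bound 241. The median log2 fold change in the olfactory receptor range, -0.13, was 0.0218 with the interquartile range and 0.0303 with the olfactory mean as covariate. In the replicate block fit, with the replicate number of the titles as a block, 820 probe sets and 410 named genes passed the criterion and 0 passed after adjustment. Deviations of same-numbered arrays correlated at 0.038, 0.481, 0.463 and 0.086, so the numbers were not taken as pairs.

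Over the 131 genes in the text, 2880 values under the alternatives were 2465 with the same direction and side of the criterion, 287 no longer past it, 84 newly past it and 44 with the sign turned. The causes were not tested. The turned values belong to 7 genes that passed no criterion. In the order interquartile range, olfactory mean, spread class and without the 2 narrowest arrays, Nos2 had 0.44, 0.50, 0.35 and 0.33, Cyp1a1 0.16, 0.11, 0.10 and 0.070, Cyp2c11 0.044, 0.13, 0.045 and 0.21, and Aldh2 0.17, 0.15, 0.089 and 0.035. In that order Hamp had -0.12, -0.16, -0.098 and -0.084 and Bmal1 -0.18, -0.10, -0.069 and -0.082, and with quantile normalization they had -0.059 and -0.13. Klb had -0.10 and -0.025 with the covariates. Cyp1a1 had 0.054 with median centring, 0.10 with quantile normalization and 0.048 with scaling. With 1 array left out Nos2 ranged from -0.60 to 0.021, Cyp1a1 from -0.17 to 0.095, Cyp2c11 from -0.45 to 0.053, Hamp from -0.15 to 0.26 and Bmal1 from -0.072 to 0.12. Of 40 list medians the sign changed in 6 with the interquartile range as covariate, 5 with median centring, 7 with quantile normalization and 7 with spread class. The filter on the dimmest 30% left dim genes without a value. The difference in interquartile range between the diets kept its direction under each alternative, at 0.17 to 0.35 with 1 array left out.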
